A study of Mus musculus with 3 samples.

Results

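Complex I is the NADH:ubiquinone oxidoreductase of the respiratory chain, and the genes described here are the nuclear genes whose symbol begins with Nduf. Of 51 such genes in the tables, 2 were left out because their name ends in -ps, the suffix of a pseudogene, and 1 because its mean over the libraries was below 1 CPM, the count of a gene scaled to a fixed library total. The remaining 48 genes, of 42258 genes in the tables and 12966 with a mean of at least 1 CPM, comprise 40 structural genes and 8 assembly factors (Ndufaf). Of the structural genes, 36 encode subunits of the 6 assembly modules of the complex (7 core and 29 supernumerary subunits) and 4 stand outside them. The members were not chosen by any difference between the groups.

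The muscle sampled was gastrocnemius together with plantaris, from male mice. Total RNA was pooled within each of 3 groups before sequencing, so that every group is 1 library without a replicate. The aged EPA library holds RNA of 6 C57BL/6J mice aged 87 weeks whose diet held 1 wt% of the omega-3 fatty acid eicosapentaenoic acid (EPA) from 75 weeks of age, for 12 weeks. For aged control, RNA of 6 C57BL/6J mice of the same age was pooled, on an EPA-deprived diet over the same weeks. For young, RNA was pooled from 3 mice of 24 weeks, whose strain is written C57BL/7J and whose diet is not given, so that age, strain label, diet and pool size cannot be told apart between the young and the aged libraries. Pooling leaves no measure of the spread between mice, and no test of a difference is possible. In these bulk samples fewer mitochondria-rich fibres and less of an RNA per fibre cannot be told apart.

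Complex I oxidises NADH in its matrix arm and passes the electrons along a chain of iron-sulphur clusters to ubiquinone, while its membrane arm pumps protons across the inner mitochondrial membrane. The matrix arm is built from the N module, which takes up the electrons, and the Q module, which hands them to ubiquinone, and the membrane arm from modules named after the mitochondrially encoded subunits ND1, ND2, ND4 and ND5. Core subunits carry the catalysis and have counterparts in bacteria, supernumerary subunits surround and stabilise them, and assembly factors help to build the complex without staying in it. Oxidative muscle fibres are rich in this complex.

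The libraries held 55969822 counts for aged EPA, 57622886 for aged control and 57386394 for young, recovered from the deposited CPM. Muscle markers were abundant in all libraries, with Ckm, the muscle creatine kinase, at 20795 CPM in aged EPA, 19190 CPM in aged control and 19250 CPM in young. The 6 markers summed to 107654 CPM in aged EPA, 107598 CPM in aged control and 94105 CPM in young. Above young were 6 of 6 in aged EPA, against 43.3% of all compared genes. In aged control 4 of 6 were above young (median log2 change 0.17), against 47.5%. The marker difference runs against that of most complex I genes between the aged libraries and young, and its part in them was not tested. The mitochondrial genome's own genes held 19.6% of the counts in aged EPA, 21.2% in aged control and 22.7% in young. Changes below are log2 ratios of CPM + 1, which understate the change of low genes. Beside the members the results turn on stands the log2 ratio of recovered count shares with its 95% counting interval (exact Clopper-Pearson). Such an interval holds counting error alone and says nothing of the spread between mice or preparations.

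In the aged control library, most complex I genes were lower than in young by the deposited CPM. Of 40 structural genes, 37 were lower in aged control than in young by any amount, a direction shared by 52.4% of all compared genes, and their median log2 change was -0.20, beside -0.01 over all compared genes. Complex I transcripts are short, and short transcripts as a whole were lower too. Of the 1203 compared genes under 1000 bases, 79.7% were lower (median -0.18). With the length trend of all genes subtracted, 27 of the 40 were lower and 13 higher (median -0.065), where 49.4% of all compared genes were lower. The differences in deposited CPM were small in size. At least 1.1-fold lower were 29 of the 40 (72.5%), against 29.0% of all compared genes. At least 20% lower in CPM + 1 were 7 of the 40 (17.5%), against 10.4%, namely Ndufc1, Ndufa5, Ndufa12, Ndufs6b, Ndufa3, Ndufa7 and Ndufb4. The first 2 of these were also at least 1.5-fold lower, as were 2.55% of all compared genes. The counting interval lay below 0 for 35 structural genes, above 0 for 1 and across 0 for 4. No such count was made over all compared genes, and abundant genes have narrow intervals, so it is not particular to complex I.

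Between the aged libraries most differences of the structural genes were small in size. Their median log2 change in aged EPA against aged control was 0.04, beside -0.03 over all compared genes, with 24 of 40 higher and 16 lower, against 44.2% and 55.8% of all compared genes. That split moved with the scaling: 31 were higher and 9 lower with recovered count shares, where 47.0% of all compared genes were lower. With the median-of-ratios and TMM scalings 28 were higher, and 50.4% and 50.9% of all compared genes were lower. At least 1.1-fold higher were 4 of the 40, Ndufc1, Ndufb10 and Ndufa13 among them, against 18.1% of all compared genes, and at least 1.1-fold lower were 3 (Ndufb5, Ndufb3 and Ndufs1), against 26.3%. At least 25% higher was Ndufc1 alone, against 5.38% of all compared genes, and at least 20% lower was Ndufb5 alone, against 7.38%. None was 1.5-fold higher or lower, sizes reached by 1.69% and 1.91% of all compared genes. Most structural genes thus lay within 1.1-fold of aged control in the aged EPA library. By recovered count shares their median log2 ratio was 0.09. The counting interval lay above 0 for 23 of the 40, below 0 for 3 and across 0 for 14. This count was not made over all compared genes.

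Against young, the aged EPA library also had most structural genes lower, with a slightly smaller median change by the deposited CPM than aged control. The median log2 change of the structural genes was -0.16, and 35 of 40 were lower, against 56.7% of all compared genes. At least 1.1-fold lower were 23 of the 40, against 32.2%, and at least 20% lower were 6, against 11.7%. Those 6 were Ndufb5, Ndufa12, Ndufa5, Ndufa3, Ndufs6b and Ndufc2, and the first 3 were at least 1.5-fold lower, as were 2.96% of all compared genes. Both comparisons share the young library. With the length trend of all genes subtracted, the structural median was -0.062 in aged EPA and -0.065 in aged control. Then 29 and 27 of the 40 were lower, where 49.7% and 49.4% of all compared genes were.

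**Figure D1:**
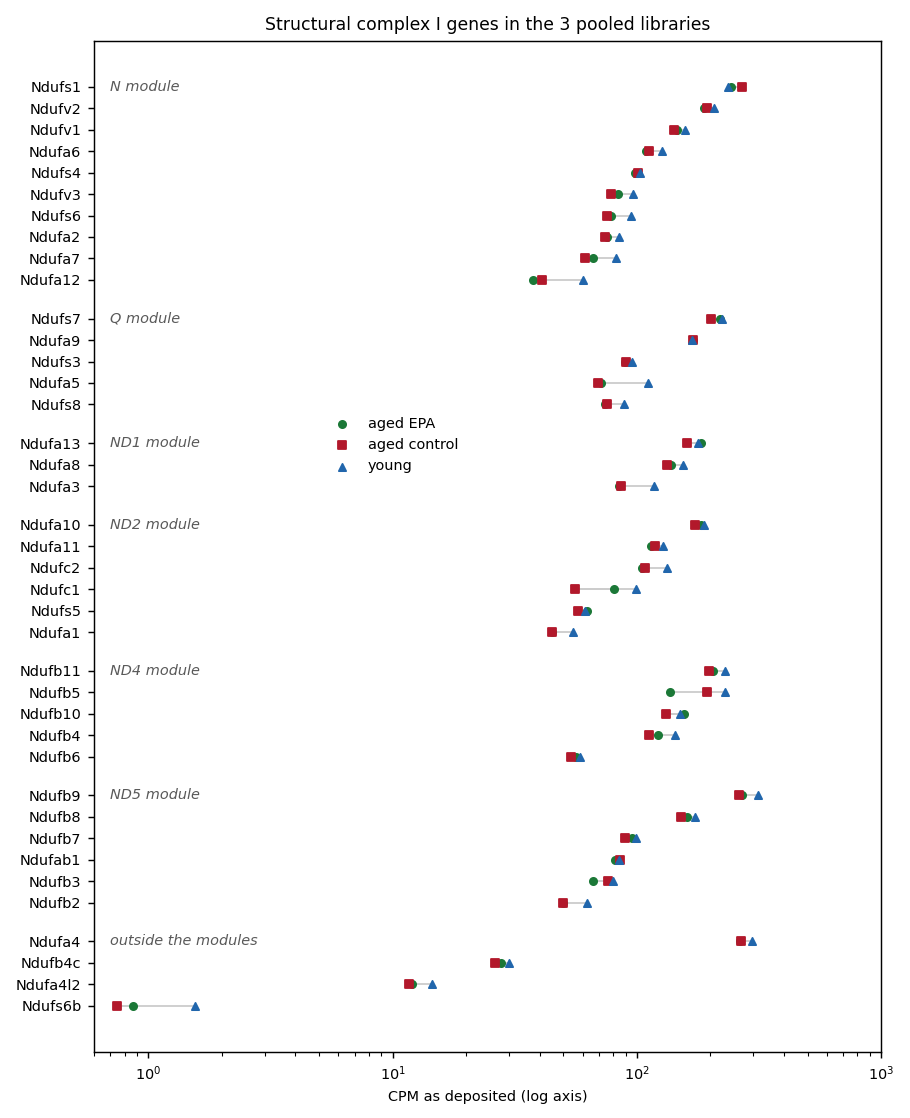
Level of 39 structural genes in CPM on a log axis, by module, with 1 point per library (circle, aged EPA; square, aged control; triangle, young) and a grey line over their range. The triangle is the rightmost point for 33 of the 39 genes, and the square lies clearly left of the others for Ndufc1, the circle for Ndufb5.

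The young library gave the highest value of the 3 for 34 of 40 structural genes, which it did for 41.4% of all compared genes. Aged EPA was highest for 4 and aged control for 2 of them, against 24.9% and 33.7% of all compared genes. Aged EPA was the lowest library for 15 structural genes and aged control for 23, against 37.5% and 30.4% of all compared genes, and young for 2, against 32.2%. Summed over the 40 genes the level was 4999 CPM in aged EPA, 4862 CPM in aged control and 5581 CPM in young. Aged EPA was thus nearer to aged control than to young in the sum. For single genes its place varied, as Ndufb10 and Ndufa13 in aged EPA stood above young and Ndufb5 and Ndufa12 below both other libraries.

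The promoters of the complex I genes were searched for motifs of factors known to drive respiratory genes. RefSeq promoters (GRCm38.p6, 250 bases before to 50 after the start) matched 40 of the 48 genes by symbol. The other 8 had no entry. The letters AAGATGGCG, a site of YY1, were found on either strand in 6 of 40 promoters (15%), against 3.65% of the compared genes with a promoter and 1.64% of all genes with one. They are shown with up to 10 flanking bases, 5′ to 3′ on the gene's strand, with the motif in capitals.
Ndufc1, chr3:51408915-51408943, minus strand: cctgcggaacAAGATGGCGccgtccgtag
Ndufa9, chr6:126849097-126849125, minus strand: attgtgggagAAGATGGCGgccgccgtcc
Ndufs7, chr10:80249463-80249491, plus strand: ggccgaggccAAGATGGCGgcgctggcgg
Ndufaf8, chr11:120098934-120098962, plus strand: ggcagggcccAAGATGGCGgcgccctcga
Ndufs6, chr13:73328433-73328459, minus strand: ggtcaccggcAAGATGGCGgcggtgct
Ndufs4, chr13:114388045-114388069, minus strand: tgcctacaggAAGATGGCGgcggtc
All 6 lie on the gene's strand, 11 to 36 bases after the start, and in 5 of the 6 the ATG within the motif is the annotated start codon. The 6 genes range from Ndufc1, with the largest difference between aged control and young, to Ndufa9 and Ndufs4, with next to none.

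A site of NRF1, the letters GCGCA followed at once by their reverse complement so that it reads the same on both strands, was found in 3 of 40 promoters (7.5%), against 2.3% of the compared genes and 1.07% of all genes.
Ndufaf5, chr2:140170652-140170681, plus strand: agtcccgttgGCGCATGCGCctaatagaaa
Ndufaf4, chr4:24897960-24897989, plus strand: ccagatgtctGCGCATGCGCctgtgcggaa
Ndufa11, chr17:56717692-56717721, plus strand: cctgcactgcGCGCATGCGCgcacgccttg
They begin 17 bases after the start in Ndufaf5, and 113 and 60 bases before it in Ndufaf4 and Ndufa11. Ndufaf4 and Ndufaf5 differed little between the aged libraries, and Ndufa11, a membrane arm subunit, had 114 CPM in aged EPA, 119 CPM in aged control and 129 CPM in young. The letters CCGGAAGT of ETS factors were found in 1 of 40 promoters (Ndufs3), against 8.97% of the compared genes, and TCAAGGTCA of the ERR receptors in none, against 0.31%. No motif searched contains another. A match of letters does not show that a factor was bound in these samples. Of the factors themselves, Nrf1 had 11.6 CPM in aged EPA, 9.11 CPM in aged control and 7.54 CPM in young, and Yy1 had 33.9, 35.2 and 36.9 CPM. Ppargc1a, the coactivator PGC-1 alpha, had 61.2 CPM in aged EPA, 85.1 CPM in aged control and 76.4 CPM in young, so that it was lowest in aged EPA, and Nrf1 was highest there. These are the ends of a list of 8 regulators, with a median log2 change of -0.03 in aged EPA against aged control. Of the 8, 3 were higher and 5 lower there, against 44.2% and 55.8% of all compared genes. Aged control had 5 of the 8 above young, against 47.5% of all compared genes.

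The core subunits are the catalytic part of the complex. Per kilobase of transcript, Ndufs8, which binds a pair of iron-sulphur clusters, was the least abundant of the 7 at 74.0, 75.4 and 88.0 CPM per kb in aged EPA, aged control and young. Ndufs1, the largest iron-sulphur subunit of the N module (ENSMUSG00000025968, chr1:63143596-63176833, minus strand, GRCm38), was highest in aged control. It had 244 CPM in aged EPA, 270 CPM in aged control and 237 CPM in young. It was the 1 structural gene whose interval lay above 0 in aged control against young (log2 change 0.18, count ratio 0.19, interval 0.16 to 0.22), and aged EPA was lower than aged control by any of the scalings used (log2 change -0.15, count ratio -0.08, interval -0.11 to -0.04). The core subunits that follow were all highest in young. Ndufv1, which binds the flavin that accepts electrons from NADH, stood at 146, 142 and 158 CPM in aged EPA, aged control and young. Ndufv2, its iron-sulphur partner, stood at 188, 193 and 206 CPM in the same order. Their log2 changes in aged control against young were -0.15 for Ndufv1 and -0.10 for Ndufv2. Ndufs7, which binds the last iron-sulphur cluster before ubiquinone, stood at 218 CPM in aged EPA, 202 CPM in aged control and 223 CPM in young. Ndufs3 of the Q module stood at 89.4, 90.0 and 95.1 CPM in aged EPA, aged control and young, and Ndufs8 at 74.4, 75.8 and 88.4 CPM. Over the 7 core subunits the median log2 change was -0.15 in aged control against young with 6 lower, against 52.4% of all compared genes. In aged EPA against aged control it was -0.01 with 3 higher and 4 lower, against 44.2% and 55.8%. With the length trend subtracted, Ndufs1 was at 0.20 and Ndufs3 at 0.04 in aged control against young. Ndufv1, Ndufv2, Ndufs7 and Ndufs8 were then at -0.09, -0.04, -0.02 and -0.10.

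Among the supernumerary subunits, 27 of 29 were lower in aged control than in young (median log2 change -0.23), against 52.4% of all compared genes. Of the compared genes under 1000 bases, 79.7% were lower, and the median of -0.23 is without subtraction of the length trend. Higher in aged EPA than in aged control were 18 of 29 (median 0.04), against 44.2%. The largest differences belonged to Ndufc1, a small membrane subunit of the ND2 module (ENSMUSG00000037152, chr3:51404677-51408988, minus strand). It had 80.5 CPM in aged EPA, 56.1 CPM in aged control and 98.9 CPM in young. Aged control was the low library and aged EPA lay between. The log2 change was -0.81 in aged control against young (count ratio -0.86, interval -0.92 to -0.79) and 0.51 in aged EPA against aged control (count ratio 0.59, interval 0.52 to 0.65). These comparisons share the aged control library, so the same low value enters both. Ndufc2, the partner of Ndufc1 in the ND2 module, did not show this pattern, at 105 CPM in aged EPA, 108 CPM in aged control and 132 CPM in young.

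Ndufb5, a subunit of the ND4 module in the membrane arm (ENSMUSG00000027673, chr3:32736990-32751566, plus strand) differed most between the aged libraries in the downward direction. It had 137 CPM in aged EPA, 194 CPM in aged control and 229 CPM in young. All 3 libraries were apart, with aged EPA the lowest. The log2 change was -0.50 in aged EPA against aged control (count ratio -0.44, interval -0.48 to -0.39) and -0.74 in aged EPA against young (count ratio -0.67, interval -0.71 to -0.63). Ndufb5 shares 530 exon bases with Mrpl47 on the opposite strand, which had 15.4, 17.1 and 16.8 CPM in aged EPA, aged control and young. Whether counting used the strand is not given in the sources used here, so reads of the shared bases may have been split between these genes. In all, 19 of the 48 members share exon bases with another gene, Ndufs1, Ndufa13 and Ndufaf3 among them, and the same limit holds there.

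Further patterns are carried by single subunits. In Ndufa5 of the Q module and in Ndufa12 and Ndufa3 both aged libraries stood well below young and nearer to each other. Ndufa5 (ENSMUSG00000023089, chr6:24518666-24528013, minus strand) had 71.6 CPM in aged EPA, 69.2 CPM in aged control and 111 CPM in young, a log2 change of -0.67 in aged control against young (count ratio -0.67, interval -0.73 to -0.61). Ndufa12, which joins the N module late in assembly, had 37.5 CPM in aged EPA, 40.8 CPM in aged control and 60.4 CPM in young. Ndufa3, a small membrane subunit of the ND1 module, had 84.6 CPM in aged EPA, 86.4 CPM in aged control and 117 CPM in young. In these 3 genes the log2 change was between -0.12 and 0.05 in aged EPA against aged control, and between -0.67 and -0.43 against young in either aged library. A second pattern, by the deposited CPM, is a higher value in aged EPA than in aged control that reached the young level. Ndufb10, a membrane arm subunit facing the intermembrane space, had 157 CPM in aged EPA, 132 CPM in aged control and 150 CPM in young, with a log2 change of 0.25 in aged EPA against aged control (count ratio 0.26, interval 0.22 to 0.30). Ndufa13, also known as GRIM-19, had 182 CPM in aged EPA, 161 CPM in aged control and 178 CPM in young. Ndufs5 of the ND2 module had 62.8, 57.6 and 61.3 CPM in aged EPA, aged control and young. Ndufb3 of the ND5 module had 66.3 CPM in aged EPA, 76.0 CPM in aged control and 80.2 CPM in young. Aged EPA was thus the lowest, and aged control also lay below young by the deposited CPM. After subtraction of the length trend, the log2 change in aged control against young was -0.02 in Ndufb10 and -0.05 in Ndufa13. In Ndufs5 and in Ndufb3 it was then 0.09, so that aged control lay above young.

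Some subunits hardly differed among the libraries. Ndufa9, which binds a nucleotide at the joint of the matrix and membrane arms, had 170 CPM in aged EPA, 169 CPM in aged control and 169 CPM in young, and its counting interval covered 0 in every comparison. Ndufs4, a subunit of the N module whose loss in mice is used as a model of Leigh syndrome, had 98.6 CPM in aged EPA, 101 CPM in aged control and 103 CPM in young. Ndufab1, which is also the acyl carrier protein of mitochondrial fatty acid synthesis, had 81.2 CPM in aged EPA, 85.2 CPM in aged control and 84.6 CPM in young. The direction of these 3 genes in aged control against young changed with the scaling or the correction for length.

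**Figure D2:**
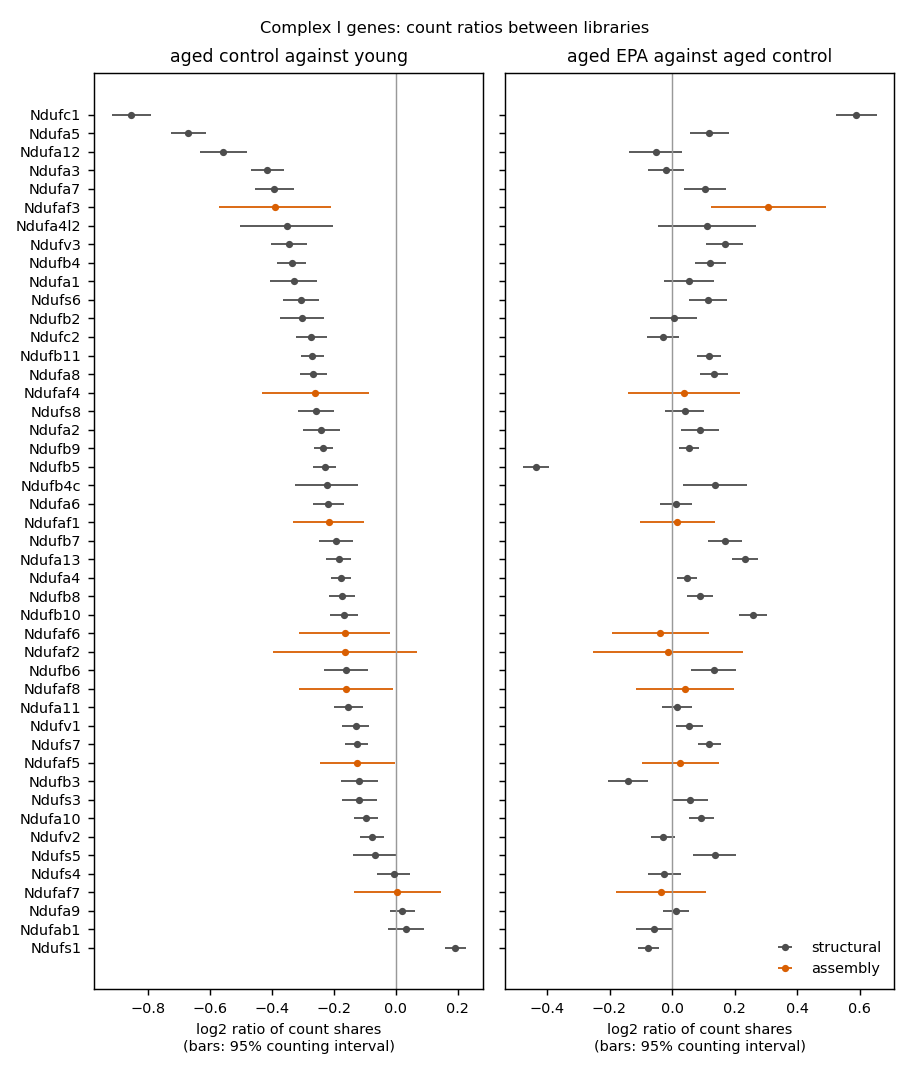
Log2 ratio of the share of counts for 46 genes (Ndufs6b, with under 100 counts per library, is not shown), in aged control against young (left) and aged EPA against aged control (right); points are ratios, bars 95% counting intervals, grey structural genes and orange assembly factors. Left, nearly all points lie below 0, with Ndufc1 at -0.86 and Ndufs1 at 0.19 as the ends; right, Ndufc1 at 0.59 and Ndufb5 at -0.44 stand away from the rest.

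By module, the median log2 change in aged control against young was -0.19 in the N module with 9 of 10 genes lower, -0.18 in the Q module with 5 of 6 lower and -0.23 in the ND1 module with 3 of 3 lower. In the modules farther out in the membrane arm it was -0.20 for ND2 with 6 of 6 lower, -0.23 for ND4 with 5 of 5 lower and -0.17 for ND5 with 5 of 6 lower. Over all compared genes 52.4% were lower, and 79.7% of those under 1000 bases. These module medians are without subtraction of the length trend. The module medians differed by at most a few hundredths on the log2 scale. In aged EPA against aged control the module medians ran between 0.00 in the N module and 0.07 in the ND1 module. Of the ND4 genes 4 of 5 were higher, against 44.2% of all compared genes, with Ndufb5 the exception.

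All 8 assembly factors were highest in young, against 41.4% of all compared genes. All 8 were lower in aged control than in young by the deposited CPM, against 52.4%. Ndufaf7 differed by less than 0.01 and became higher with recovered counts. With the trend with transcript length over all genes subtracted, aged control had 5 of the 8 below young and 3 above, with a median log2 change of -0.019. Under at least 1 of the settings tried Ndufaf2, Ndufaf7 and Ndufaf8 changed sign. Against young, the median log2 change was -0.18 in aged EPA, again with 8 of 8 lower (56.7% of all compared genes), and -0.16 in aged control. In aged EPA against aged control the median was -0.02 with 3 higher and 5 lower, against 44.2% and 55.8% of all compared genes. Recovered counts turned that split to 5 higher and 3 lower, so no direction can be given. The levels were low beside those of the subunits, with a median of 9.33 CPM per kb in aged EPA, 9.99 in aged control and 10.6 in young, where the structural genes had 114, 115 and 129 CPM per kb. At 283 to 1346 counts per gene and library, 7 of the 8 intervals in aged EPA against aged control covered 0.

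Ndufaf3, a factor that in human cells acts with Ndufaf4 on the Q module and its attachment to the membrane, was the exception. It had 9.57 CPM in aged EPA, 7.78 CPM in aged control and 10.4 CPM in young. The aged control library alone was low, with a log2 change of -0.37 against young (count ratio -0.39, interval -0.57 to -0.21) and of 0.27 in aged EPA against aged control (count ratio 0.31, interval 0.12 to 0.49). Ndufaf4 did not follow it, at 8.93 CPM in aged EPA, 9.11 CPM in aged control and 10.6 CPM in young. Ndufaf5, which hydroxylates an arginine of Ndufs7, had 19.2, 18.9 and 20.9 CPM in aged EPA, aged control and young, and its partner Ndufaf8 had 11.6, 11.9 and 13.3 CPM. Ndufaf7, a methyltransferase, had 13.5, 14.5 and 14.6 CPM in the same order. Ndufaf1, a member of the assembly complex on the ND2 module, had 20.2 CPM in aged EPA, 20.1 CPM in aged control and 23.8 CPM in young, so that both aged libraries were low. Ndufaf2, a paralogue of Ndufa12 that holds its place until Ndufa12 joins, had 5.01, 5.10 and 5.80 CPM in aged EPA, aged control and young. Unlike Ndufa12 its interval covered 0 in every comparison, which at 283 to 328 counts per library does not show that it was level. Ndufaf6 had 11.8, 12.6 and 13.8 CPM in aged EPA, aged control and young.

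Assembly factors without the Nduf prefix were read from a list of 12 genes, of which 11 were compared. Against young, 9 of 11 were lower in aged control (median log2 change -0.12), where 52.4% of all compared genes were. In aged EPA against aged control 7 were higher and 4 lower (median 0.08), against 44.2% and 55.8% of all compared genes. Tmem70, which in human cells serves the assembly of complex V and of complex I, had 30.9 CPM in aged EPA, 55.0 CPM in aged control and 55.2 CPM in young. Aged EPA alone was low, with a log2 change of -0.81 against aged control (count ratio -0.76, interval -0.85 to -0.68). Timmdc1, a membrane factor for the ND1 module, had 19.3 CPM in aged EPA, 15.6 CPM in aged control and 19.4 CPM in young, so that aged control alone was low. Ecsit, a partner of Ndufaf1, had 84.0 CPM in aged EPA, 74.9 CPM in aged control and 74.0 CPM in young.

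The 4 structural genes outside the modules have other roles or are copies. Ndufa4, which work in human cells assigns to complex IV, had 265 CPM in aged EPA, 268 CPM in aged control and 296 CPM in young, and per kilobase it was the most abundant Nduf gene in all 3 libraries. Ndufa4l2, its paralogue, which is known for induction in hypoxia, had 12.0 CPM in aged EPA, 11.7 CPM in aged control and 14.5 CPM in young. Both were highest in young. Ndufb4c and Ndufs6b are annotated as processed pseudogenes, copies of an mRNA put back into the genome. All 390 bases of the Ndufb4c transcript on chromosome 15 match the coding sequence of Ndufb4 on chromosome 16 without a difference. The 27.7 CPM of Ndufb4c in aged EPA, 26.4 CPM in aged control and 30.04 CPM in young therefore cannot be told apart by sequence from reads of Ndufb4, which had 122, 112 and 144 CPM.

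Ndufs6b, on chromosome 7, is the member just inside the limit of 1 CPM, with 0.87 CPM in aged EPA, 0.74 CPM in aged control and 1.55 CPM in young. Ndufa11b, the 1 gene left out by that limit, lay far below it. It had 0.018 CPM in aged EPA, 0.035 CPM in aged control and 0 in young, where the limit that 3 counts allow is 0.0523 CPM. Ndufs6b rests on 50, 42 and 87 counts in aged EPA, aged control and young, and differs from Ndufs6, a subunit of the N module on chromosome 13, at 12 of 348 bases. Of its 299 stretches of 50 bases, 76 occur unchanged in the Ndufs6 transcript. The 60 bases of the copy with the most differences are shown beside the same stretch of Ndufs6 as the part of the copy where a read can be placed best, from the GENCODE M21 transcripts, 5′ to 3′, with the differing bases in capitals.
Ndufs6b: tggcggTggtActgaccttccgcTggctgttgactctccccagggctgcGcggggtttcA
Ndufs6: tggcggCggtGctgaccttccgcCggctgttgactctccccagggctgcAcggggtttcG
Ndufs6 had 78.1 CPM in aged EPA, 75.8 CPM in aged control and 94.2 CPM in young, so that copy and source gene were both highest in young.

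The 7 subunits encoded in the mitochondrial genome complete the core. They differed from the nuclear genes in the library that stood low. By the deposited CPM aged EPA gave the lowest value for 7 of 7, against 37.5% of all compared genes. Their sum was 77796 CPM in aged EPA, 90642 CPM in aged control and 94082 CPM in young. The smallest log2 change of the 7 in aged EPA against aged control was -0.03, beside a median of -0.03 over all compared genes. Other scalings are not given here for these genes. The median log2 change was -0.24 in aged EPA against aged control with 7 of 7 lower, against 55.8% of all compared genes. In aged control against young it was -0.06 with 5 of 7 lower, against 52.4%. mt-Nd1, which sits next to the ubiquinone channel, had 21006 CPM in aged EPA, 21780 CPM in aged control and 24538 CPM in young. mt-Nd6, the 1 subunit encoded on the opposite strand, had 3698 CPM in aged EPA, 6169 CPM in aged control and 6449 CPM in young, and a log2 change of -0.74 in aged EPA against aged control. Its end overlaps mt-Nd5, which had 15824, 18673 and 18069 CPM in aged EPA, aged control and young.

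**Figure D3:**
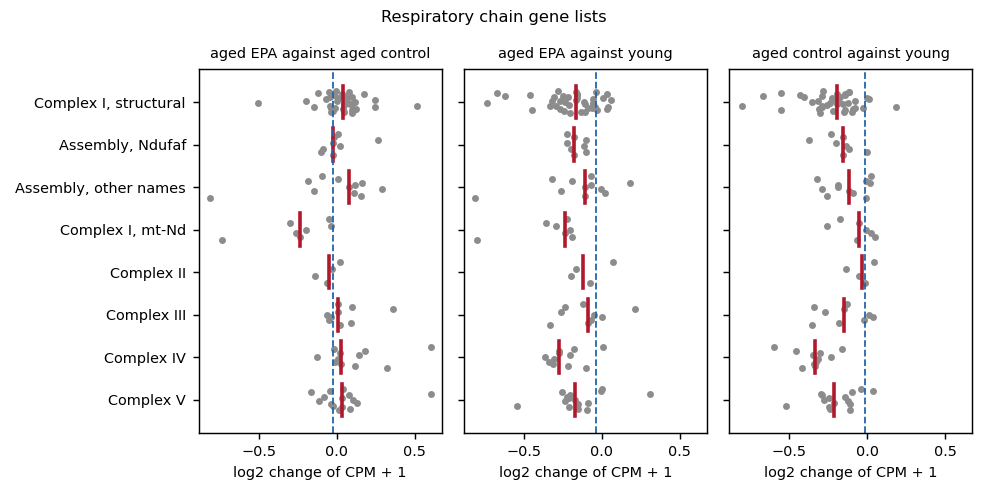
Log2 change of CPM + 1 of each gene (grey points) in 8 lists of respiratory chain genes, with the median of the list (red line) and of all compared genes (blue dashed line), for aged EPA against aged control, aged EPA against young and aged control against young from left to right. Medians of complex I, III, IV and V lie left of the dashed line in aged control against young, at -0.20, -0.15, -0.33 and -0.22, and the mitochondrially encoded subunits lie left of it in aged EPA against aged control, at -0.24.

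The other complexes of the chain were read for comparison. Of 39 nuclear genes of complexes II to V, 35 were lower in aged control than in young (median log2 change -0.23), against 52.4% of all compared genes. By at least 20% lower were 10 of them, against 10.4%. The direction was thus not particular to complex I. Complex IV had the lowest median at -0.33 with 11 of 11 lower, and complex II, the succinate dehydrogenase, the highest at -0.04 with 3 of 4 lower. Of the 39 genes, 23 were under 1000 bases and all 23 were lower (median -0.28), against 79.7% of all compared genes of that length. From 1000 to under 2000 bases 9 of 12 were lower (median -0.10), against 63.5%. The part of length in the order of the complexes was not tested. In aged EPA against aged control 24 of the 39 were higher (median 0.02), against 44.2% of all compared genes. Cox4i1, the largest nuclear subunit of complex IV, had 350 CPM in aged EPA, 230 CPM in aged control and 348 CPM in young, so that aged control alone was low.

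The differences between aged control and young went with transcript length over all genes, and complex I transcripts are short. The structural genes had a median length of 892 bases, against 2922 bases over all compared genes. Among the 1203 compared genes under 1000 bases, 79.7% were lower in aged control than in young (median log2 change -0.18), and the 24 structural genes of that length were all lower (median -0.21). From 1000 to under 2000 bases, 63.5% of 2694 genes were lower (median -0.06), and 11 of 12 structural genes (median -0.19). With the length trend of all genes subtracted, 27 of 40 structural genes were lower in aged control than in young and 13 higher, with a median of -0.065, where 49.4% of all compared genes were lower. At least 20% lower were then 4 of the 40, against 8.50% of all compared genes. Ndufc1, Ndufa5 and Ndufa12 then had log2 changes of -0.71, -0.53 and -0.44. In aged EPA against aged control, subtraction left Ndufc1 at 0.49 and Ndufb5 at -0.53. The part of length in these differences was not tested.

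**Figure D4:**
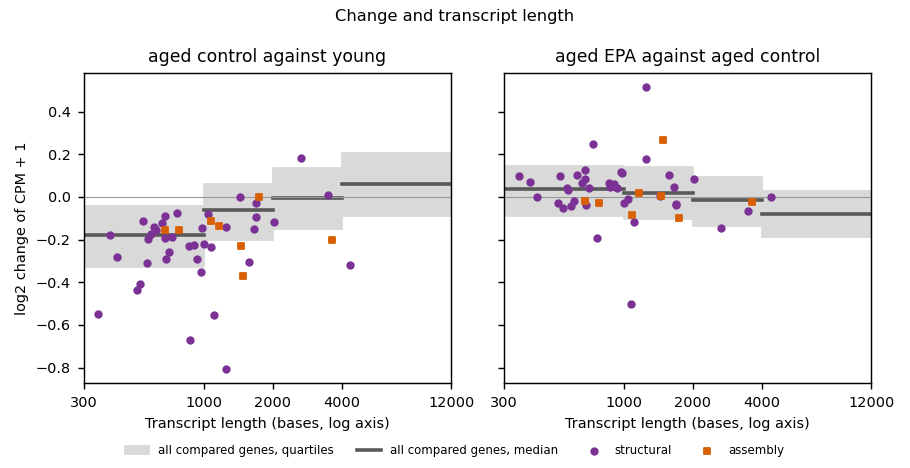
Log2 change of CPM + 1 against transcript length in bases (log axis) for structural genes (purple circles) and assembly factors (orange squares), over the median (dark line) and quartiles (grey band) of all compared genes in 4 length classes, in aged control against young (left) and aged EPA against aged control (right). On the left the short classes lie below 0, at -0.18 and -0.06, and Ndufc1, Ndufa5 and Ndufa12 are among the points below the grey band. On the right Ndufc1 and Ndufb5 are among the points outside the band.

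Markers of other cells and fibres also differed between the libraries. Slow fibre markers, which come with oxidative fibres, summed to 380 CPM in aged EPA, 482 CPM in aged control and 243 CPM in young, with all 5 higher in aged control (against young), where most complex I genes were lower, and all 5 lower in aged EPA (against aged control). Adipocyte markers summed to 292 CPM in aged EPA, 257 CPM in aged control and 397 CPM in young. Of these, 4 of 4 were lower in aged control than in young, against 52.4% of all compared genes. Higher in aged EPA than in aged control were 4 of 4, against 44.2%. Endothelial markers summed to 228, 237 and 300.4 CPM in aged EPA, aged control and young, and red blood cell markers to 404, 403 and 1082 CPM. The brown adipocyte markers Ucp1 and Cidea summed to 0.47, 0.81 and 0.35 CPM in aged EPA, aged control and young. Ucp1, which defines brown adipocytes, was at 0 in all libraries, so that the whole sum came from Cidea. Myh6, a heart myosin gene, was at 3.36, 6.83 and 3.57 CPM in the same order. The part of slow fibres, adipocytes, endothelium and blood in the complex I differences was not tested.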

How the data were processed

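The 3 libraries were made from pooled total RNA of gastrocnemius and plantaris muscle. Per the submitters' processing notes, HISAT2 2.1.0, StringTie 1.3.4d and R 3.5.0 were used with mouse build GRCm38 (mm10). The counting step, its strandedness and the annotation are not given in the sources used here. The deposited values are CPM per gene as the authors calculated them. All values became whole (tolerance 1e-06, largest distance 3.0e-09) when multiplied by 1 of 5 divisors, 56034275 to 57687235, which differed between genes and tables. The deposited CPM therefore differed by -2.98% to 2.83% from CPM made with the library total.

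From the deposited CPM, 63 rows with a repeated symbol were summed by symbol, and genes averaging at least 1 CPM were compared by the log2 ratio of CPM + 1. With 1 library per group no test was run. Differences are described by size (20% lower or 25% higher in CPM + 1, with 1.1-fold and 1.5-fold beside it), by the same count over all compared genes, and by 95% exact Clopper-Pearson intervals of recovered counts. A level of 0 allows up to 3 counts, 0.0536 CPM in aged EPA, 0.0521 in aged control and 0.0523 in young. Lengths, GC content and positions come from GENCODE M21 (1 principal or else longest transcript per gene), with 48 of 48 genes matched. The length trend is a lowess curve with a span of 0.3 over all compared genes.

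Named genes followed a rule: the 7 core subunits (1 member is counted in totals and not reported here by name), the 5 members per direction with the largest change in each comparison, every assembly factor, Ndufa4, Ndufa4l2 and Ndufab1, and the members nearest the 1 CPM limit. Ndufa7, Ndufc2, Ndufb4, Ndufs6, Ndufa11, Mrpl47 and the genes named from the other lists were chosen after their values were seen. Modules, other complexes, regulators and cell markers were 20 lists. The members, lists and alternatives were chosen with earlier results of these data known. Python 3.11.15, numpy 2.4.6, pandas 2.3.3, scipy 1.17.1, statsmodels 0.14.6 and matplotlib 3.10.9 were used, and the steps were tested on simulated data.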

Additional observations from a re-analysis of the deposited data

How the results depend on the processing

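The values were computed again with other pseudocounts (0.1 and 5), with no filter or a mean of at least 5 CPM, and with repeated symbols treated otherwise. Other scalings were median of ratios, TMM, without mitochondrially encoded and the 20 most abundant genes, and recovered counts over own totals. Trends with length or GC content were subtracted, and other memberships were used. Of 102 alternative values, 95 differed from the reported ones by less than a set limit. For medians the limit was the median half-width of single members' counting intervals, and for counts 1.5 times. A median over many genes has a smaller counting error than 1 gene, and the treatment of repeated symbols changed no value. The 95 of 102 is therefore no measure of stability. For the assembly factors that half-width is 0.15. Within it, the length trend moved their median from -0.16 to -0.019 in aged control against young and from -0.18 to -0.062 in aged EPA against young. The structural median in aged EPA against aged control was 0.09 with recovered counts in place of 0.04. With the length trend subtracted, the median log2 change of the structural genes was -0.062 in aged EPA against young and -0.065 in the comparison of aged control with young, and 4 genes in place of 7 were at least 20% lower in aged control (against young). Counted at 1.1-fold and 1.5-fold, that number was 29 and 2, and the number of structural genes higher in aged EPA than in aged control was 4 and 0 in place of 1, as the threshold sets. The median of the assembly factors in aged EPA against aged control, -0.02, was 0.02 with recovered counts over own totals and 0.04 with the GC trend subtracted. In aged control against young, 26 of 40 structural genes were lower under all alternatives, 1 (Ndufs1) was higher and 13 changed sign under at least 1. In aged EPA against aged control 22 were higher, 7 lower and 11 changed sign. Leaving out Ndufb4c and Ndufs6b was chosen after seeing the data. No paired analysis was possible because each group is 1 library. Depth limits the assembly factors and Ndufs6b, and the lack of replicates limits every difference.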
